A study of Bos taurus with 12 samples.

Results

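Integrins are receptors of the cell surface that hold cells to the extracellular matrix. Each is a pair of 1 alpha and 1 beta subunit, in which the alpha subunit largely sets the ligand and the beta tail binds talin and kindlin, which link the receptor to actin. In skeletal muscle they anchor myoblasts to fibronectin and collagen, and later fix muscle fibres to the laminin of the basement membrane. N6-methyladenosine (m6A) is a methyl mark on mRNA that is placed by a METTL3 complex and read by YTH proteins, and it lies mostly near stop codons and in 3′UTRs.

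The 10 integrin subunits described here, ITGA1, ITGA3, ITGA4, ITGA5, ITGA6, ITGA7, ITGAV, ITGB1, ITGB3 and ITGB5, were taken by gene name from the 18436 genes of the expression table, and their m6A peaks by the gene name given in the peak lists. All 10 were found, and all 10 passed the filter of a mean of at least 0.5 FPKM (fragments per kilobase of exon, scaled to the mapped reads of the library) that left 12302 genes for testing. No coding or genomic sequence of these genes was used here, so the peaks are given by position only.

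The cells were primary myoblasts of Qinchuan cattle, taken from longissimus dorsi muscle of a newborn. The GM group was harvested in growth medium with 20% fetal bovine serum at 80% confluence, and the DM group after 4 days in differentiation medium with 2% horse serum, at 100% confluence, when myotubes had formed. Medium, serum, density and time differ together between the groups and cannot be told apart. Each group had 3 input libraries (mRNA before immunoprecipitation) and 3 m6A immunoprecipitated (IP) libraries. The methods describe cells of a single newborn, and the labels do not say whether the replicates are separate cultures. The p-values therefore measure the spread between these libraries and not between animals.

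The labelled cell types were checked against marker genes. Of 9 muscle differentiation markers, 6 rose and 1, ACTA1, fell in DM, all 6 proliferation markers fell, and of 6 myoblast markers PAX7, MYOD1 and MYF5 fell. Differentiation markers were already present in GM, with MYH3 at 273 FPKM in GM and 659 in DM. MYOG (197 and 243 FPKM) and MYMK (41.1 and 47.3) were not called. PAX7 was low in GM too, at 1.08 FPKM. The myoblast markers DES (453 and 488 FPKM), CDH15 (21.5 and 17.9) and NCAM1 (67.9 and 60.3) were not called. The 8 fibroblast markers were also present, led by COL1A1, with summed levels of 10323 to 10473 FPKM in GM and 11690 to 12257 FPKM in DM. None of the 8 was called, 4 were higher and 1 lower at a limma Benjamini-Hochberg adjusted p under 0.05, and none was at 0 in any library. Of all genes tested, 11.9% were called, and 16.1% were higher and 26.7% lower at that adjusted p. In bulk RNA, a change in the number of cells of a type and a change in RNA per cell cannot be told apart. Of 4 smooth muscle markers, 3 were tested and were lower in DM at an adjusted p under 0.05 with none called, and the 4 summed to 3060 to 3543 FPKM in GM and 2523 to 2697 FPKM in DM. Sums of the adipocyte, endothelial and leukocyte markers stayed at or under 2.66, 0.653 and 2.08 FPKM in any library. The part that other cell types play in the integrin values was not tested.

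A gene counted as called when its unadjusted limma p was under 0.05 and its means on the log2(FPKM + 1) scale lay more than 1.5-fold apart, a scale that understates the change of genes with low FPKM. By this rule 4 of the 10 subunits were called, 3 higher and 1 lower in DM, against 11.9% of all genes tested (4.90% higher and 6.97% lower). At an adjusted p under 0.05 with no fold limit, 4 subunits were higher and 2 lower, against 42.8% of all genes (16.1% higher and 26.7% lower). The 3 values of 1 group lay apart from those of the other in 7 subunits, as they did in 54.1% of all genes. The median log2 fold change of the 10 subunits was −0.04, beside −0.05 over all genes tested.

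ITGA6 and ITGA7, which both pair with ITGB1 as laminin receptors, moved in opposite directions. ITGA7 is known as the laminin receptor subunit of muscle fibres. Its level was 21.6, 21.8 and 21.7 FPKM in the GM libraries and 5.69, 4.79 and 5.00 FPKM in the DM libraries. All DM libraries lay far under all GM libraries, and ITGA7 fell by 1.88 on the log2 scale (SE 0.066, limma Benjamini-Hochberg adjusted p = 4.5e-07). Of the 12302 genes tested, it had the 60th largest fall on this scale. In ratio of means it was 4.20-fold lower in DM.

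ITGA6 was at 6.36, 6.69 and 5.84 FPKM in GM and at 18.9, 20.9 and 18.1 FPKM in DM. The groups did not overlap, and ITGA6 rose 3.07-fold in mean FPKM (log2 fold change 1.48, SE 0.072, limma Benjamini-Hochberg adjusted p = 2.3e-06). It had the 92nd largest rise of the genes tested. The ratio of ITGA7 to ITGA6 was 3.40, 3.25 and 3.72 in the GM libraries and 0.300, 0.229 and 0.276 in the DM libraries, so that the more abundant member of the pair was exchanged.

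ITGA3, the third laminin-binding alpha subunit, was the most abundant of the 3 in both groups, at 40.8 ± 1.60 FPKM in GM and 37.3 ± 3.99 FPKM in DM (mean ± SD, n = 3 per group). Its groups overlapped, as DM replicate 2 was at 41.8 FPKM within the GM range of 39.0 to 42.1. The log2 fold change was −0.13 with a 95% interval of −0.31 to 0.05 (limma adjusted p = 0.21). Without DM replicate 2 it was −0.21 (limma adjusted p = 0.026), past the adjusted threshold but still under 1.5-fold, while the other alternatives gave adjusted p-values of 0.20 to 0.93 (limma). The FPKM of ITGA3, ITGA6 and ITGA7 summed to 68.8 ± 1.59 in GM and 61.8 ± 5.19 in DM (SD, n = 3), with overlapping libraries (exact permutation test, two-sided, p = 0.20). Within that sum ITGA3 held 59.3% in GM and 60.3% in DM, ITGA6 went from 9.16% to 31.3% and ITGA7 from 31.5% to 8.41%. With 3 libraries per group the smallest p that the exact permutation test can give is 0.10, which both of the latter shares reach.

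**Figure D1:**
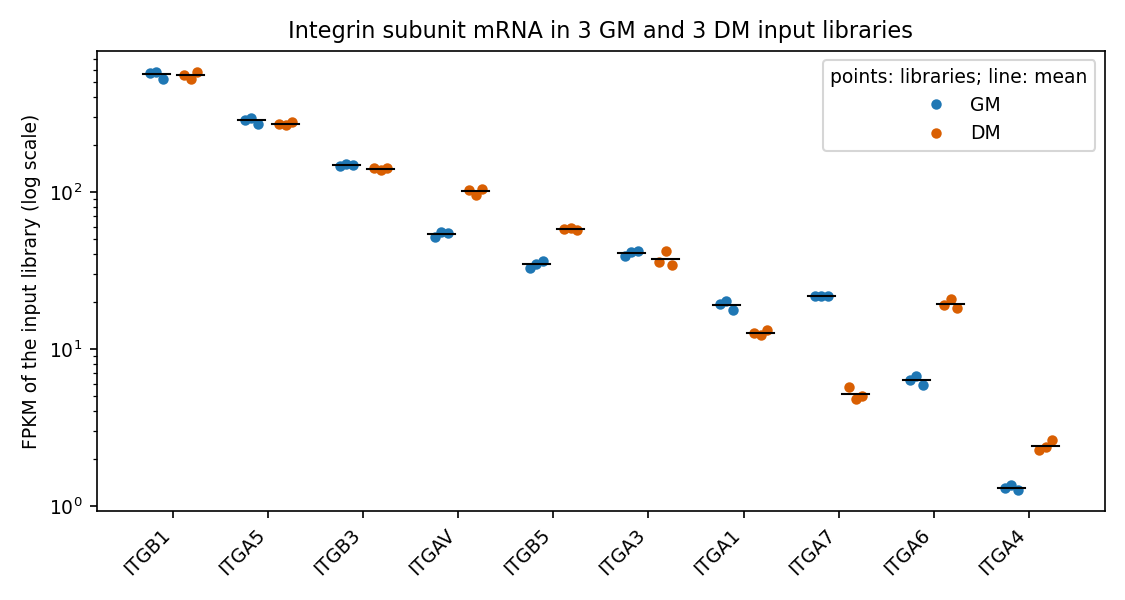
FPKM of the 10 integrin subunits (log axis) in each of the 3 GM and 3 DM input libraries, ordered by mean level, with points for libraries and a line for the group mean. ITGA6, ITGAV, ITGB5 and ITGA4 sit higher in all DM libraries, ITGA7 and ITGA1 lower, and the most abundant subunit, ITGB1, overlaps between the groups.

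Among the subunits that bind the RGD sequence of fibronectin and vitronectin, ITGAV rose and ITGA5 was not called. ITGAV, the partner of ITGB3 and ITGB5 that also takes part in the activation of latent TGF-beta, was at 51.3, 55.3 and 54.7 FPKM in GM and at 103, 94.9 and 104 FPKM in DM. No DM library came near the GM range, and the rise was 1.87-fold in mean FPKM (log2 fold change 0.89, SE 0.056, limma Benjamini-Hochberg adjusted p = 8.7e-06). ITGA5, which joins ITGB1 in the main fibronectin receptor, was at 288, 296 and 271 FPKM in GM and at 272, 267 and 277 FPKM in DM. These ranges overlapped, and the log2 fold change of −0.07 had a 95% interval of −0.19 to 0.05 (limma adjusted p = 0.32), and turned to 0.057 as TPM. ITGA5 remained the most abundant alpha subunit in each library, but its ratio to ITGAV was 4.95 to 5.62 in GM and 2.65 to 2.81 in DM.

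ITGA1, a collagen receptor subunit, was at 19.3, 20.2 and 17.7 FPKM in GM and at 12.6, 12.3 and 13.1 FPKM in DM. Each DM library lay under each GM library, with a log2 fold change of −0.55 (SE 0.062, limma Benjamini-Hochberg adjusted p = 0.00021) that stopped short of the 1.5-fold limit. ITGA1 was called with a pseudocount of 0.1 (log2 fold change −0.59) and without GM replicate 3 (−0.60). The fall was smaller as TPM (−0.45) and with median-ratio size factors (−0.49). In ratio of means it was 1.51-fold lower in DM.

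ITGA4, which binds VCAM1 and fibronectin, had the lowest level of the 10, at 1.30, 1.37 and 1.25 FPKM in GM and at 2.27, 2.36 and 2.61 FPKM in DM. The groups did not overlap and the means differed 1.85-fold, but on the log2(FPKM + 1) scale the difference was 0.56 (SE 0.073, limma Benjamini-Hochberg adjusted p = 0.00046), under the limit. It passed that limit with a pseudocount of 0.1 (0.84), as TPM (0.82), with median-ratio size factors (0.60) and without DM replicate 1 (0.59).

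The 3 beta subunits kept their order. ITGB1, the partner of most alpha subunits, was at 575, 582 and 520 FPKM in GM and at 558, 523 and 581 FPKM in DM, and ranked 115th in mean level among all genes tested. Its groups overlapped almost entirely, and its log2 fold change of −0.01 (95% interval −0.16 to 0.14, limma adjusted p = 0.91) took the other sign as TPM (0.11) and with size factors (0.052). ITGB3, the partner of ITGAV, was at 146, 150 and 147 FPKM in GM and at 142, 138 and 141 FPKM in DM. Its groups lay apart by a small margin, with a log2 fold change of −0.07 (95% interval −0.17 to 0.03, limma adjusted p = 0.21) that turned to 0.052 as TPM.

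ITGB5, a beta subunit that pairs with ITGAV alone, was at 32.9, 34.5 and 36.3 FPKM in GM and at 57.7, 58.9 and 57.3 FPKM in DM. Every DM library was higher, and ITGB5 rose 1.68-fold in mean FPKM (log2 fold change 0.73, SE 0.052, limma Benjamini-Hochberg adjusted p = 1.6e-05). The ratio of ITGB3 to ITGB5 was 4.06 to 4.44 in GM and 2.34 to 2.47 in DM.

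**Figure D2:**
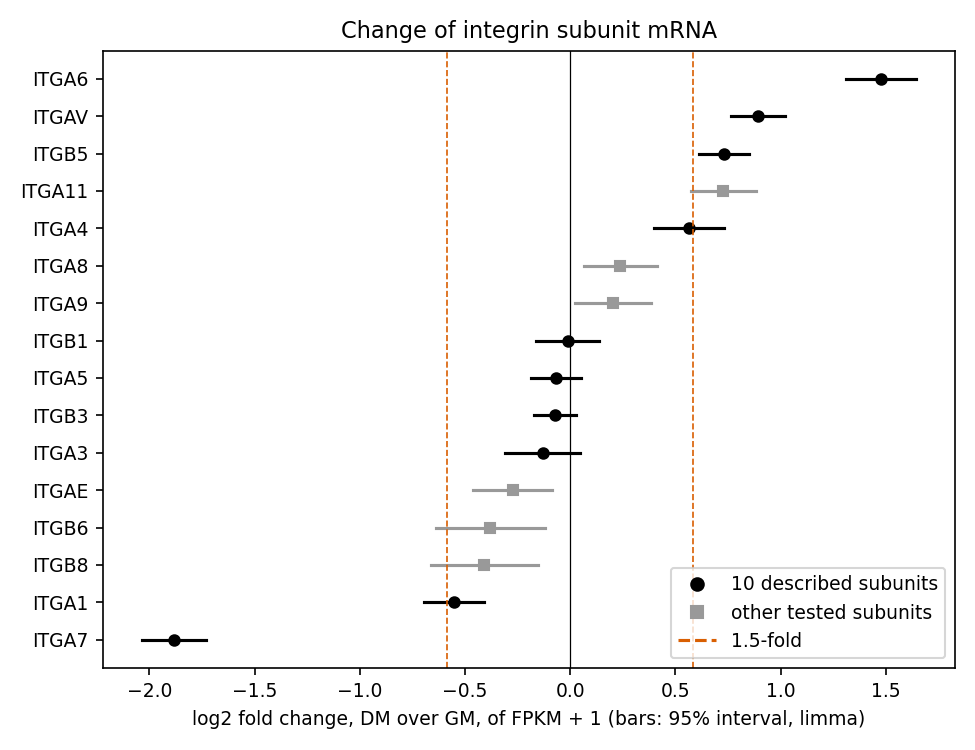
Log2 fold change of FPKM + 1, DM over GM, with 95% limma intervals, for the 10 described subunits (black) and the 6 other integrin subunits tested (grey), with dashed lines at 1.5-fold. ITGA6, ITGAV and ITGB5 lie beyond the upper line and ITGA7 beyond the lower, and the intervals of ITGB1, ITGA5, ITGB3 and ITGA3 span 0.

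As FPKM is scaled to gene length, the levels of the subunits can be set side by side. In GM the alpha subunits ran, from the highest, ITGA5, ITGAV, ITGA3, ITGA7, ITGA1, ITGA6 and ITGA4, and in DM ITGA6 and ITGA7 changed places. No 2 neighbours in either order overlapped between libraries. The order of the beta subunits was ITGB1, ITGB3 and ITGB5 in both groups, again with no overlap.

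Of the summed FPKM of the 7 alpha subunits, ITGAV held 12.6 ± 0.606% in GM and 22.4 ± 0.879% in DM, and ITGA5 held 66.6 ± 1.09% and 60.5 ± 0.400% (SD, n = 3 per group). ITGA6 went from 1.47% to 4.31%, ITGA7 from 5.07% to 1.15%, ITGA1 from 4.45% to 2.82% and ITGA4 from 0.305% to 0.537%. Of the summed beta subunits, ITGB5 held 4.67 ± 0.425% in GM and 7.71 ± 0.425% in DM, ITGB3 19.9% and 18.7%, and ITGB1 75.4% and 73.6%. Tests of the 10 shares were run as one family of exact two-sided permutation tests, and 8 reached the smallest possible p of 0.10 (0.125 after Benjamini-Hochberg adjustment), with ITGA3 at 0.30 and ITGB1 at 0.20. Shares of the same sum depend on each other, so these tests are not independent. A share can fall because another subunit rose, and ITGA5 and ITGB3, whose shares fell, were not called in FPKM. The sum of the 7 alpha subunits was 428 ± 14.4 FPKM in GM and 449 ± 5.20 FPKM in DM, and the sum of the 3 beta subunits 741 ± 33.4 and 752 ± 30.2 FPKM (SD, n = 3). The beta sum exceeded the alpha sum 1.73 ± 0.0332 times in GM and 1.67 ± 0.0481 times in DM, with overlapping libraries.

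**Figure D3:**
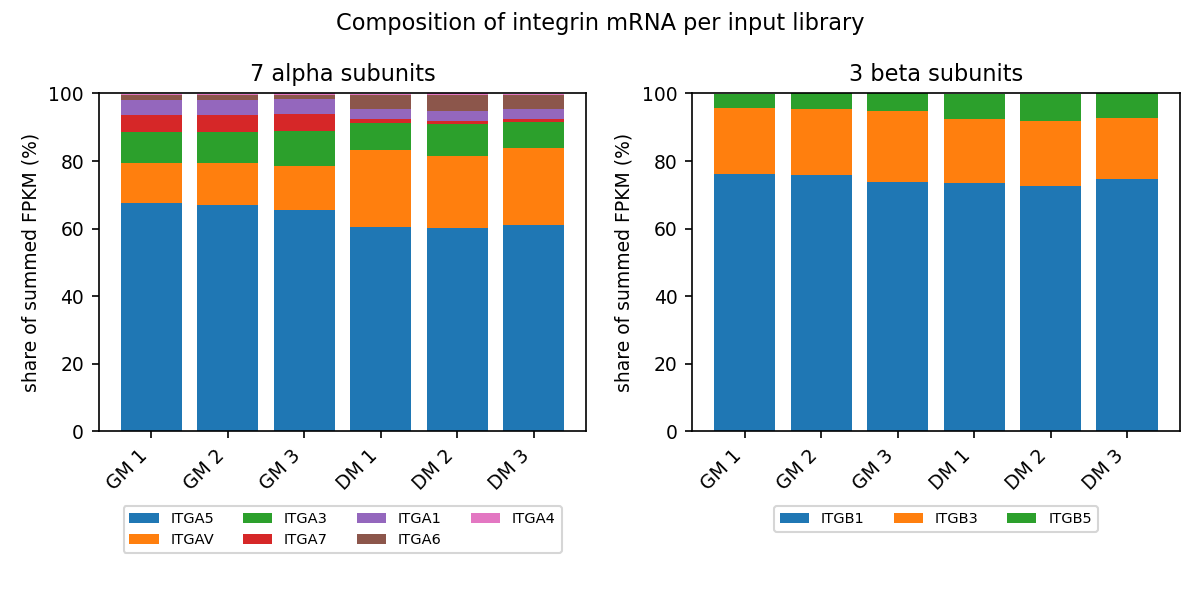
Share of each subunit in the summed FPKM of the 7 alpha (left) and 3 beta (right) subunits, 1 stacked bar per input library. The ITGAV band, at most 13.2% in a GM library, is at least 21.4% in each DM library, the ITGA7 band shrinks and the ITGA6 band grows, while ITGA4, at most 0.574%, is barely visible.

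The m6A lists, 1 for GM and 1 for DM, hold a single pooled fold enrichment of IP over input per peak, with no replicate error, and so allow no test between the groups. The GM list held 13 peaks in 7 of the 10 genes, and the DM list 14 peaks in 7 genes. ITGA3, ITGA5, ITGA6, ITGA7, ITGB3 and ITGB5 had peaks in both lists, ITGB1 in GM alone and ITGA4 in DM alone, and ITGA1 and ITGAV in neither. Among all 12302 genes tested, 70.9% had a GM peak, 78.7% a DM peak and 19.0% neither. For the 5365 genes whose mean reached 10 FPKM, these shares were 70.2%, 79.9% and 18.1%. ITGAV, at 53.8 FPKM in GM and 101 FPKM in DM, and ITGA1, at 19.1 and 12.7 FPKM, are among those with neither. A 3′UTR was given as the region of 9 of the 13 GM peaks and 10 of the 14 DM peaks, beside 42.6% and 45.3% of all peaks in the lists. Median fold enrichment was 2.74 for the GM and 2.98 for the DM peaks of these genes, and 3.27 and 3.38 over the lists.

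Peaks overlapping by at least 1 base of exon on the same strand made 11 pairs of exactly 1 GM and 1 DM peak. Fold enrichment differed by more than 1.5-fold in 2 of them, 1 higher and 1 lower in DM, beside 25.0% of all 10239 pairs (14.2% higher and 10.8% lower). Both of these pairs lie in the laminin receptor subunits whose mRNA was called in the same direction. How often peak and mRNA changes share a direction over all pairs was not tested. The other ITGA6 pair and those of ITGB5, whose mRNA was called as well, stayed within 1.5-fold, and the called ITGAV had no peak. With a required overlap of 50% of both peaks, 0 changed pairs were left, since in both changed pairs the peaks differ in width. The ITGA7 pair was also lost at a fold enrichment of at least 2.

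In ITGA6, on the minus strand of chromosome 2, the pair lies at the 3′ end of the 3′UTR. The GM peak (chr2:24091667-24091817, ARS-UCD1.2, 151 nt) had a fold enrichment of 3.02, and the DM peak (chr2:24091577-24091966, 390 nt), which holds all of the GM peak and reaches the annotated transcript end, one of 12.8. The latter is higher than 94.8% of the DM list and the highest value among the peaks of the 10 subunits. As most of the DM peak lies outside the GM peak, the ratio of 4.24 (log2 ratio 2.08) compares stretches that are only partly alike. The other ITGA6 pair did not differ so. Its GM peak (chr2:24093104-24093733) had a fold enrichment of 4.49, and its DM peak, whose 3 blocks run from the 3′UTR into exons upstream (chr2:24092954-24098544), one of 4.14. A further DM peak between them (chr2:24092445-24092805) had 1.3 and no GM counterpart. The ITGA6 mRNA behind these peaks was at 6.30 FPKM in GM and 19.3 FPKM in DM, and the part of that difference in the peak values was not tested.

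In ITGA7, on the plus strand of chromosome 5, the GM peak filled the last 329 bases of the 3′UTR (chr5:57571684-57572012) with a fold enrichment of 3.45. The DM peak (chr5:57571773-57571893) covered 121 of these bases with 1.42 and an unadjusted p of 0.0087, weak for its list, where it ranked above 7.11% of peaks. The GM value was 2.43 times the DM value (log2 ratio −1.28). The ITGA7 mRNA behind these peaks was at 21.7 FPKM in GM and 5.16 FPKM in DM, and the part of that difference in the peak values was not tested. The GM list also placed a peak in exon 1 of 24 (chr5:57549048-57549108), with a fold enrichment of 1.19.

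Among the 10 subunits, the highest fold enrichment in GM was that of ITGA5. Its peak, annotated to the 3′UTR, was made of 4 exon blocks and ended at the transcript end (chr5:25680204-25683364, 1410 nt of exon), with the same bounds in both lists, a fold enrichment of 8.27 in GM and 6.72 in DM. ITGA3 (chromosome 19, minus strand) had a 3′UTR peak of 5.33 in GM (chr19:36565806-36566913) and 4.86 in DM, and a weaker 5′UTR peak of 1.95 and 1.85 (chr19:36598301-36598451 in GM). All of these differ by less than 1.5-fold.

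ITGB3 (chromosome 19, plus strand) carried a pair of 3′UTR peaks in both lists. The one at the transcript end (chr19:46391936-46392416 in GM) had 2.65 in GM and 2.50 in DM, and the other (chr19:46389148-46389268 in GM) 2.74 and 2.81. A DM peak in exon 10 of 15 (chr19:46370084-46370444) had 1.5 and no GM counterpart. ITGB5 (chromosome 1, minus strand) had peaks of 4.03 and 3.23 at the 3′ end (chr1:69196911-69198164 in GM), of 2.59 and 3.15 further upstream in the 3′UTR (chr1:69199143-69199352 in GM) and of 1.47 and 1.33 over inner exons, in GM and DM in turn. So the rise of ITGB5 mRNA came with no pair beyond 1.5-fold.

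ITGB1, the most abundant subunit, had a single GM peak over exon 11 of 16 (chr13:20002019-20003584), with a fold enrichment of 1.2 and an unadjusted p of 1e-81. In fold enrichment it ranked above 0.415% of the GM list. ITGA4, with the lowest mRNA level, had a single DM peak at its 5′ end (chr2:15175438-15176065, annotated 5′UTR) with a fold enrichment of 4.79 and an unadjusted p of 0.0011. ITGA4 was at 1.31 FPKM in GM and 2.41 FPKM in DM, and whether the level decided where the peak was found was not tested.

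**Figure D4:**
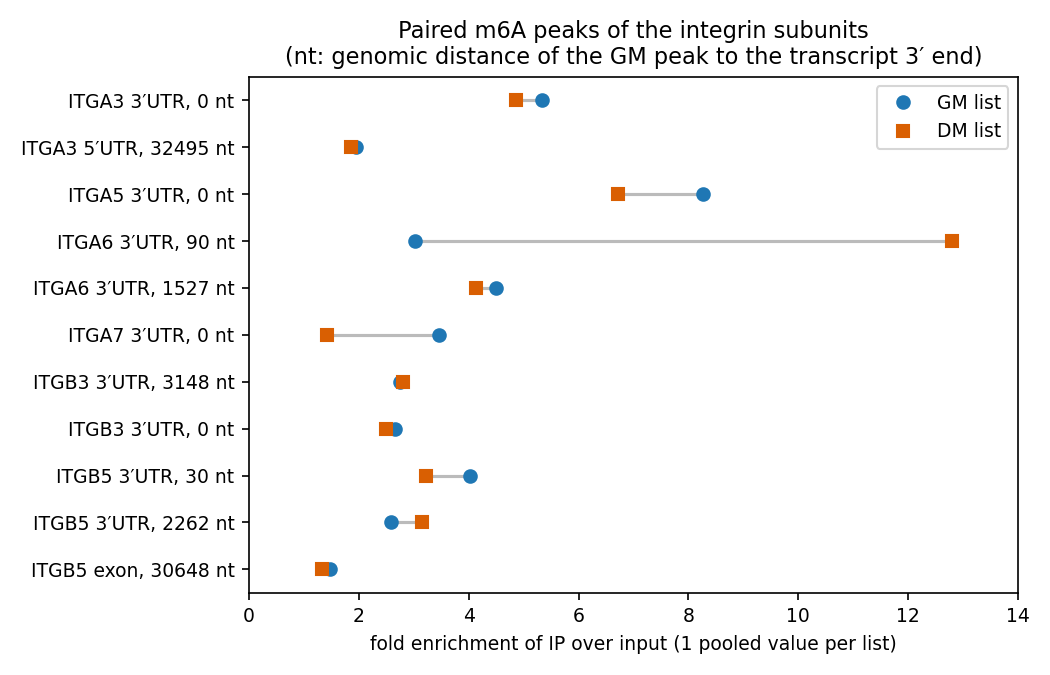
Fold enrichment of IP over input in the 11 paired m6A peaks of the integrin subunits (GM circles, DM squares, 1 pooled value each), with the annotated region and the distance of the GM peak from the transcript 3′ end. The ITGA6 pair nearest the end goes from 3.02 to 12.8 and the ITGA7 pair from 3.45 to 1.42, while the other 9 pairs differ by less than 1.5-fold.

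Of 12 further integrin subunits in the table, 6 had a mean of at least 0.5 FPKM. ITGA11, a collagen receptor subunit of mesenchymal cells, was the most abundant, at 23.2, 23.0 and 26.7 FPKM in GM and 41.5, 41.7 and 39.1 FPKM in DM. It was the 1 of the 6 called, 16.7% beside 11.9% of all genes (log2 fold change 0.73, SE 0.067, limma Benjamini-Hochberg adjusted p = 7.1e-05). This change was opposite in sign to that of ITGA1. The ratio of ITGA11 to ITGA1 was 1.28 ± 0.195 in GM and 3.23 ± 0.215 in DM (SD, n = 3). ITGA8 was at 4.55 and 5.54 FPKM in GM and DM, ITGA9 at 0.650 and 0.900, ITGAE at 2.45 and 1.85, ITGB6 at 3.32 and 2.30, and ITGB8 at 3.14 and 2.11, none of them past 1.5-fold. At an adjusted p under 0.05 with no fold limit, ITGA11 and ITGA8 were higher and ITGAE, ITGB6 and ITGB8 lower. That is 2 and 3 of the 6, beside 16.1% and 26.7% of all genes. The summed FPKM of the collagen-binding alpha subunits was 43.9 ± 1.03 in GM and 54.1 ± 1.10 in DM, and that of the RGD-binding group 344 ± 13.5 in GM and 378 ± 9.67 in DM (SD, n = 3), both without overlap. ITGB2, the leukocyte beta subunit, had means of 0.0685 and 0.102 FPKM.

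Of 31 cytoplasmic activators and adapters of integrins tested, 4 were called higher and 0 lower in DM, 12.9% beside 11.9% of all genes, with a median log2 fold change of −0.05. At an adjusted p under 0.05 with no fold limit the balance was the other way, with 4 higher and 9 lower, beside 16.1% and 26.7% of all genes. KANK1, found at the rim of focal adhesions, rose from 5.46 ± 0.0952 to 12.3 ± 1.57 FPKM (SD, n = 3), a log2 fold change of 1.04 (SE 0.085, limma Benjamini-Hochberg adjusted p = 3.6e-05). The tensins TNS3 (4.46 to 7.79 FPKM) and TNS1 (36.4 to 56.0 FPKM) rose too, as did LIMS2, a PINCH adapter of the ILK complex, whose DM libraries were at 18.1, 31.1 and 28.8 FPKM and thus spread widely. ACTN1, the most abundant of the list, was at 375 and 372 FPKM.

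Of 26 ligands tested, 4 were called higher and 4 lower, 30.8% beside 11.9% of all genes, with a median log2 fold change of 0.18. At an adjusted p under 0.05 with no fold limit, 12 were higher and 7 lower, beside 16.1% and 26.7% of all genes. FN1, the fibronectin bound by ITGA5, ITGAV and ITGA4 receptors, was at 917, 911 and 956 FPKM in GM and at 4443, 4777 and 4274 FPKM in DM, a log2 fold change of 2.27 (SE 0.061, limma Benjamini-Hochberg adjusted p = 2.1e-07). SPP1 (osteopontin, 16.3 to 44.3 FPKM), LTBP1, which stores latent TGF-beta (14.1 to 26.2 FPKM), and CCN2 (813 to 1347 FPKM) also rose. POSTN (273 to 132 FPKM), the laminin chain LAMA5 (6.99 to 3.55 FPKM), CCN1 (383 to 238 FPKM) and TNC (1070 to 712 FPKM) fell. The other laminin chains tested did not fall with LAMA5. LAMA2 (6.58 to 8.36 FPKM), LAMB1 (114 to 141), LAMB2 (29.8 to 36.7) and LAMC1 (70.2 to 89.2) were higher at an adjusted p under 0.05 but not called. LAMA4, at 48.5 and 51.2 FPKM, did not pass that threshold. CCN1 varied widely in GM, at 461, 414 and 273 FPKM. COL1A1, the most abundant ligand, was at 6791 and 7420 FPKM and was not called.

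Among 12 tetraspanins and lateral partners, CD9, a tetraspanin that joins ITGB1 receptors and takes part in myoblast fusion, rose from 69.1 ± 2.67 to 156 ± 10.7 FPKM (SD, n = 3), a log2 fold change of 1.16 (SE 0.062, limma Benjamini-Hochberg adjusted p = 3.4e-06). BSG (basigin) fell from 668 ± 36.6 to 356 ± 18.3 FPKM (log2 fold change −0.90, SE 0.062, limma Benjamini-Hochberg adjusted p = 1.3e-05), and CD63, the most abundant, was at 749 and 756 FPKM. These were the 2 called of the 12, 16.7% beside 11.9% of all genes. At an adjusted p under 0.05 with no fold limit 3 were higher and 4 lower, beside 16.1% and 26.7% of all genes.

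**Figure D5:**
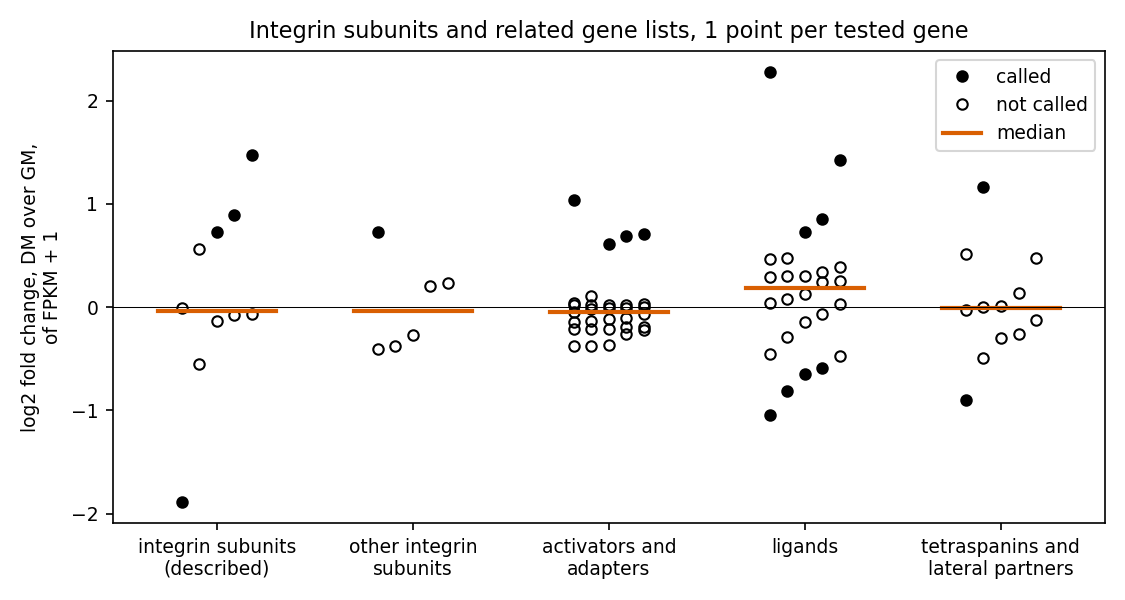
Log2 fold change of FPKM + 1, DM over GM, of each tested gene of 5 lists, with filled points for called genes and a line at each list's median. The medians lie between −0.05 and 0.18, with ITGA7 and FN1 as the lowest and the highest points.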

How the data were processed

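Input and m6A IP libraries of GM and DM cells were strand-specific and paired-end. The authors trimmed reads with Trimmomatic, aligned them with HISAT2 to ARS-UCD1.2 and computed the deposited FPKM of the 6 inputs with StringTie (versions not given in the sources used here). The submitters' processing notes name cutadapt, fastp and HOMER as well. The deposited peak lists came from exomePeak, 1 per group, with ChIPseeker regions. In them the authors' fold enrichment is a linear ratio, IP divided by input, and their score is the authors' unadjusted p-value, at most 0.05. The files give no read counts, so depth per value is unknown and precision rests on 3 libraries per group.

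The members, the lists and the rule for named genes were chosen with earlier results of these data known. All 10 members are named, and from each related list up to 4 largest called rises and falls and the most abundant gene. Groups followed the sample titles. Expression was tested with limma 3.58.1 in R 4.3.3 on log2(FPKM + 1) with a variance trend, over genes whose mean reached 0.5 FPKM, with Benjamini-Hochberg adjustment over all of them. Peaks were paired with pandas 2.3.3 under Python 3.11.15, exact tests used scipy 1.17.1, and matplotlib 3.10.9 drew the figures. Strand was that of the annotated gene. In simulated data of 12302 genes, 200 of 200 changed genes were recovered, with 25 other calls. The planted changes were all well past the 1.5-fold limit, so recovery of changes near that limit was not tested. No set test was run. Alternatives covered pseudocount, filter, scaling, block, variance trend, thresholds, each library left out and stricter peak sets.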

Additional observations from a re-analysis of the deposited data

How the results depend on the processing

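The calls of ITGA6, ITGA7, ITGAV and ITGB5 held under each scaling, filter, pseudocount and left-out library. ITGA1 was called with a pseudocount of 0.1 (log2 fold change −0.59) and without GM replicate 3, and ITGA4 with a pseudocount of 0.1 (0.84), as TPM (0.82), with size factors (0.60) and without DM replicate 1. ITGA1 fell less as TPM (−0.45) and with size factors (−0.49). As libraries were left out, ITGA1 ranged from −0.60 to −0.51, ITGA4 from 0.52 to 0.59 and ITGB1 from −0.063 to 0.029. TPM moved the median of all genes from −0.05 to 0.06 and turned ITGA5 to 0.057, ITGB3 to 0.052 and ITGB1 to 0.11 (0.052 with size factors). It gave 1762 called genes, 970 higher and 792 lower, in place of 1461 (603 and 858). An adjusted p with no fold limit gave 5268 genes and a fold change over 2 gave 507, with 2 integrin subunits. With the replicate block the counts were 1473 genes and 4 subunits, and no call of a subunit changed. Same-numbered libraries did not deviate together (r −0.079, −0.12 and −0.21 over 12302 genes), so the block rests on a number only. Over all integrin subunits the change in share was −7.43 points for ITGA5, −3.68 for ITGA7 and 8.48 for ITGAV, in place of −6.10, −3.92 and 9.83. A fold enrichment of at least 2 left 9 DM peaks. Changed pairs numbered 1 at a false discovery rate under 0.001, 1 at a fold enrichment of at least 2 and 0 with overlap of at least 50% of both peaks, which removes the ITGA6 and ITGA7 pairs by construction. The median log2 ratio of the pairs was −0.12, and −0.10, −0.10 and −0.19 at the stricter false discovery rate, the stricter enrichment and after centring. Precision is limited by 3 libraries per group and 1 pooled value per peak.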
